A study of Mus musculus with 8 samples.

Results

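Proliferating proximal tubule cells (Prolif PT) are the cells that the authors placed in the class of that name when they sorted single-cell transcriptomes of mouse kidney into 28 classes. All cells carrying that class name were taken, 820 of 77393 (1.06%), of which 665 came from Control and 155 from obstructed kidneys. The libraries were made from whole kidney of C57BL/6 mice aged 7 weeks, 6 of them titled Control and 2 titled UUO, for unilateral ureteric obstruction. In this model 1 ureter is tied, and the protocol gives ligation on the left and death on day 7. That protocol text is attached to every sample, so the groups rest on the titles and the disease label, and the sources used here do not say what was done to the Control mice. Whether each library is 1 animal or a pool is not stated, so a p-value reflects the spread of the libraries alone, and that spread may be technical.

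The proximal tubule is the first segment of the nephron and takes back most of the filtered salt, glucose and amino acids, work that is powered by a dense supply of mitochondria. Its cells rarely divide in the healthy adult kidney. After injury, surviving proximal tubule cells can lose features of the differentiated state, re-enter the cell cycle and repopulate the tubule, and a stalled cycle in such cells has been linked to fibrosis. In single-cell data cycling tubule cells are commonly recognised by Mki67 and Top2a, which mark dividing cells, together with Lrp2, the endocytic receptor megalin of the proximal tubule. The tables used here give the class, library, number of unique transcript molecules (UMIs), number of genes and mitochondrial percentage of each cell, and no level of any gene. These 3 markers were therefore not checked, and the class is described by the authors' name for it.

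The libraries held 2263 to 18393 cells. Controls 3 and 4 had class numbers that did not differ at the 0.05 level (chi-square p = 0.0509, against at most 4.09e-41 for the other 14 pairs of Control libraries), and were counted as 1 sample, here called Control 3+4. That test treats cells as independent, so it does not show that they are 1 sample. The titles number them apart. Pooling Controls 3 and 4 left 5 Control and 2 UUO samples, for which the smallest two-sided exact permutation p is 0.0476. Over 12 exact tests, a single result at that p could not pass Benjamini-Hochberg adjustment at 0.05. Across libraries 3243 of 74073 barcodes occurred more than once. None of these repeats joined 2 Prolif PT cells, though 61 of the 820 had a barcode found on a cell of another class in another library. In no case did 2 cells with the same barcode have the same UMIs and genes. Control 5 stood apart in Prolif PT number and Control 6 in the state of its Prolif PT cells, and group differences that move with either are given with and without it.

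Control 5 held 529 of the 820 Prolif PT cells. UUO 1 held 113, Control 6 held 68, UUO 2 held 42, Control 2 held 33, Control 1 held 17, Control 4 held 13 and Control 3 held 5. Control 5 therefore supplied 64.5% of the class, although it supplied 20.9% of all cells.

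The first comparison asked whether obstruction changed the share of proximal tubule cells in the proliferating class. Prolif PT cells were counted against PT and Prolif PT cells together, which keeps the recovery of distal, endothelial and immune cells out of the denominator. Among Control samples the share was 0.836% (95% interval 0.488 to 1.33) in Control 1, 0.725% (0.499 to 1.02) in Control 2, 0.642% (0.381 to 1.01) in Control 3+4, 4.92% (4.52 to 5.35) in Control 5 and 0.676% (0.526 to 0.857) in Control 6. It was 0.769% (0.634 to 0.924) in UUO 1 and 0.517% (0.373 to 0.698) in UUO 2. Intervals are exact (Clopper-Pearson) and cover counting error only. Both UUO samples were below Control 5, and UUO 1 lay inside the range of the remaining Control samples while UUO 2 lay under it. Taken as separate libraries, Control 3 held 0.472% (0.154 to 1.10) and Control 4 held 0.746% (0.398 to 1.27), and UUO 2 then also lay inside the Control range. Put as frequencies, there was 1 Prolif PT cell for every 20.3 proximal tubule cells in Control 5, against 1 for every 120 in Control 1, 130 in UUO 1 and 193 in UUO 2.

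The groups did not differ beyond the spread between samples. The mean share of proximal tubule cells was 0.643% ± 0.178 (SD, n = 2) in UUO and 1.56% ± 1.88 (SD, n = 5) in Control. On the log2 scale of the Prolif PT to PT ratio the UUO minus Control difference was -0.76 (two-sided exact permutation p = 0.476, Benjamini-Hochberg value 0.898 over the 12 exact tests made). Without Control 5 the Control mean was 0.720% ± 0.0844 (SD, n = 4) and the difference was -0.20. With all 8 libraries separate it was -0.63 (two-sided exact permutation p = 0.536, Benjamini-Hochberg value 0.918).

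The share of all cells ran from 0.290% in Control 3+4 to 0.513% in Control 2 among the Control samples other than Control 5, which held 3.27%. UUO 1 held 0.614% (0.507 to 0.738) and UUO 2 held 0.325% (0.234 to 0.439), so the UUO samples differed from each other by more than counting error. The limma fit over all classes gave a UUO minus Control difference of -0.56 in log2 odds (95% interval -2.22 to 1.11, adjusted p 0.550), in a fit that called 50% of the 28 classes, 28.6% as lower in UUO. As a share of tubular cells the difference was -0.32 (-1.88 to 1.23, limma adjusted p 0.678), in a fit that called 70% of the 10 tubular classes, 60% as lower in UUO. Prolif PT was called in neither. In both fits the standard error is one shared by all classes. Without Control 5 both differences had the other sign, at 0.031 and 0.25. Centring on all tubular classes (1.50) and TMM scaling (1.89) also turned the tubular share, with adjusted p of 0.186 and 0.165.

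**Figure D1:**
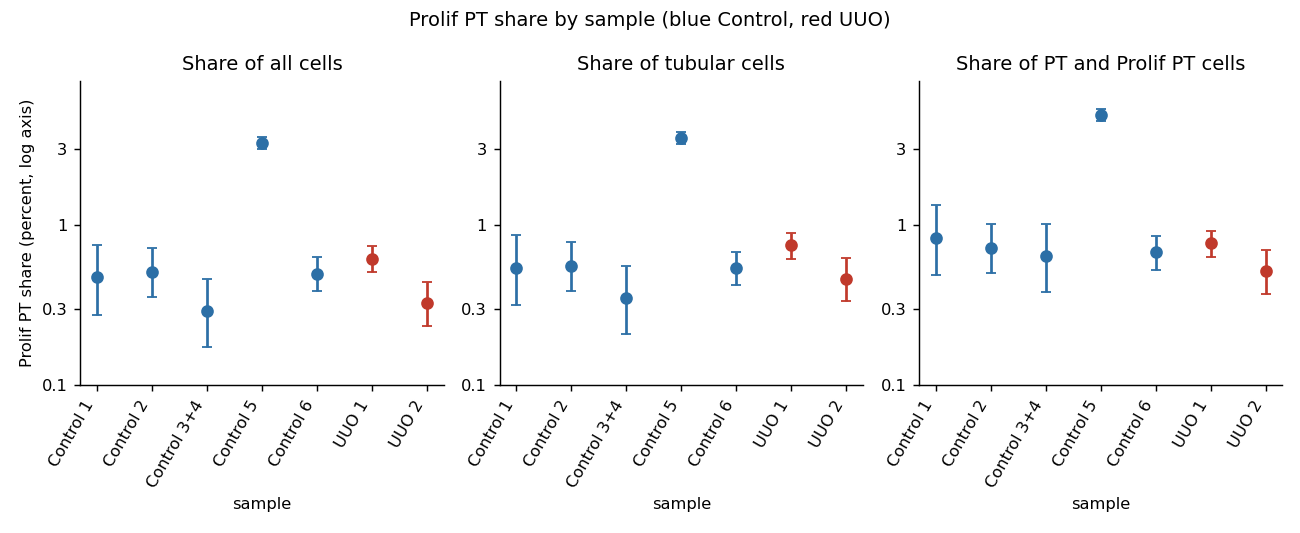
Percentage of Prolif PT cells (log axis) in each sample among all cells, tubular cells, and PT with Prolif PT cells. Points are shares and bars exact 95% intervals for counting error, blue for Control and red for UUO. Control 5 stands at 3.27%, 3.52% and 4.92%, and the other samples lie between 0.290% and 0.836%.

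Control 5 was rich in several tubular classes, and in Prolif PT most of all. Prolif PT had the largest share of its cells from Control 5 among the 28 classes, at 64.5%. Next came the proliferating lymphocyte class (Prolif Ly) with 114 of 228 cells, 50% of the class. Podocytes followed with 45.2%, then cells of the distal convoluted tubule (DCT) with 41.3%, of the collecting duct (CD PC) with 36.2%, the class B-IC with 33.9% and cells of the connecting tubule (CNT) with 33.8%. The main proximal tubule class, PT, had 19.6% of its cells from Control 5 and the class Profibrotic Tubules 21.4%, both near the 20.9% for all cells. Control 5 also had the highest median UMIs over all its cells, 2944, against 1292 to 1726 in the other Control libraries. UUO 1 and UUO 2 had medians of 2496 and 2583.5 over all cells. Their Prolif PT shares of all cells were 0.614%, the next highest after Control 5, and 0.325%, against 3.27% in Control 5. Whether depth had a part in the number in Control 5 was not tested.

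The excess in Control 5 was also present among better-measured cells. With cells of at least 1000 UMIs alone, Control 5 held 507 Prolif PT among 9833 proximal tubule cells (5.16%), and the other 7 libraries held 0.441% to 0.875%. With cells under 20% mitochondrial UMIs alone, it held 389 among 7804 (4.98%), and the others held 0.352% to 1.13%. Control 5 was above every other library under both limits.

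**Figure D2:**
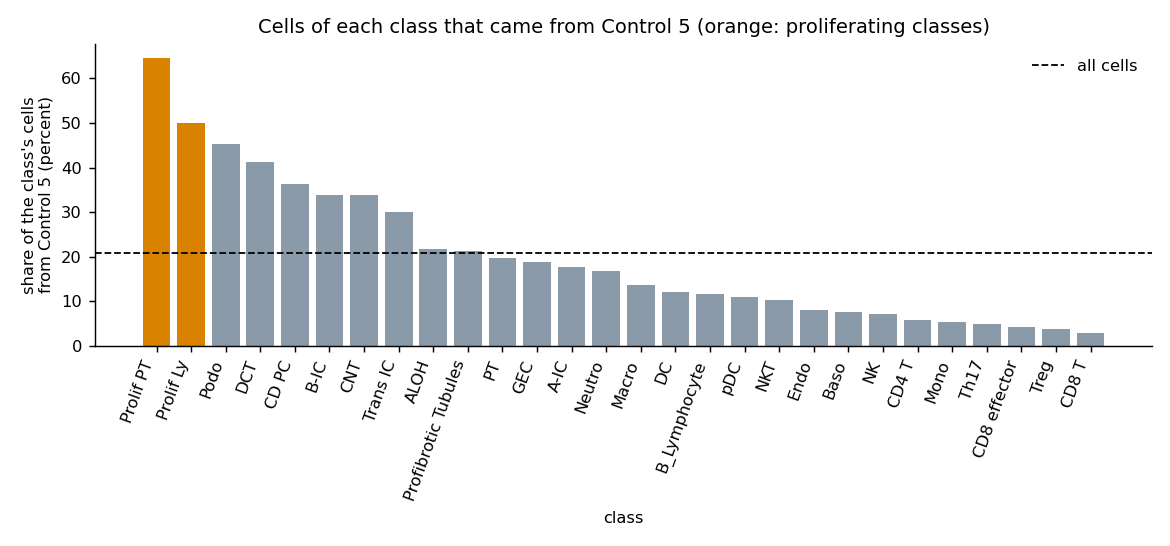
Share of the cells of each class that came from Control 5, in percent, with the dashed line at the 20.9% for all cells. The proliferating classes, in orange, are the highest bars, at 64.5% for Prolif PT and 50% for Prolif Ly.

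Proliferating lymphocytes gave a second cycling class in the same libraries. Their share of lymphoid cells was 21.0% in Control 5 and 5.24% in Control 6. It was 1.14% in Control 1, 4.05% in Control 2 and 1.17% in Control 3+4, 2 to 8 cells each. UUO 1 held 1.48% and UUO 2 held 1.27%. Control 5 was thus the highest sample in both proliferating classes. Within each sample the log2 odds of Prolif Ly were taken from those of Prolif PT, and the UUO minus Control difference of these values was 0.80 (two-sided exact permutation p = 0.429, Benjamini-Hochberg value 0.898). A different response of the classes to obstruction was not detected, in either direction. With these sample numbers this test could not have passed adjustment by itself, so it does not decide the question.

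The Prolif Ly cells of Control 5 did not look like those of the other libraries. Their median mitochondrial percentage was 29.6, and 77 of 114 cells (67.5%) were at or above 20%. In the other 7 libraries together 3 of 114 Prolif Ly cells (2.63%) were that high. The remaining lymphoid cells of Control 5 had a median of 5.05%, and its Prolif PT cells one of 11.8%. The high-mitochondrial Prolif Ly cells of Control 5 also lay nearer to Prolif PT in the authors' embedding, at a median distance of 1.56 from its centre, against 2.03 for the other Prolif Ly cells of that library. Gene levels were not used here, so whether those 77 cells are lymphocytes was not tested. Among cells under 20% mitochondrial UMIs, Prolif Ly made up 8.83% of lymphoid cells in Control 5 and 5.54% in Control 6. The Prolif PT share of 4.98% in Control 5 counts no Prolif Ly cells by definition, so it cannot show how those 77 should be classed.

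The next comparison asked whether Prolif PT cells carried more transcripts in obstructed kidneys. Median UMIs per Prolif PT cell were 1632 in Control 1, 2314 in Control 2, 1431 in Control 3+4, 4025 in Control 5 and 1106 in Control 6. They were 3143 in UUO 1 and 4390.5 in UUO 2. Both UUO samples lay above 4 of the 5 Control samples, and Control 5 lay between them. Control averaged 2102 ± 1163 UMIs (SD, n = 5) and UUO 3767 ± 882 (SD, n = 2). The limma fit of log2 medians over 19 classes put the UUO to Control ratio at 1.97 (95% interval 1.08 to 3.57).

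That ratio did not pass adjustment (limma adjusted p 0.136; the fit called 10.5% of the classes, and 4 of the 19 had an unadjusted p under 0.05). Without Control 5 the ratio was 2.38 and passed (limma adjusted p 0.00439), while two-sided exact permutation gave p = 0.0667, the smallest possible there. The call thus changed with 1 library. With Control 5 kept, it also changed among cells under 20% mitochondrial (limma adjusted p 0.0323). Without Control 6 the ratio was 1.72 (95% interval 0.974 to 3.04, limma adjusted p 0.230). PT cells of the same samples also held more in UUO, with medians of 2617.5 and 2729 against 1260 to 2891 in Control. How deeply a library was sequenced and how much RNA its cells held cannot be told apart in this number.

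Dividing by PT cells compares the classes at the depth of 1 library. The Prolif PT to PT ratio of median UMIs was 1.30 in Control 1, 1.38 in Control 2, 1.04 in Control 3+4, 1.39 in Control 5 and 0.640 in Control 6. It was 1.20 in UUO 1 and 1.61 in UUO 2. With all cells counted, Prolif PT cells thus held more UMIs than PT cells in 6 of 7 samples, and fewer in Control 6. Taken as separate libraries, Control 3 had medians of 2036 in Prolif PT and 1355 in PT. Control 4 had 970 against 1397, so its Prolif PT cells also held fewer. These are descriptions, since both classes come from clustering of the same cells. The UUO minus Control difference of the log2 ratio was 0.33 (two-sided exact permutation p = 0.429, Benjamini-Hochberg value 0.898). It was 0.13 without Control 6, 0.12 without UUO 2 and 0.54 without UUO 1, so its size rested on single libraries. The log2 ratio of median genes differed by 0.32 between the groups, by 0.12 without Control 6, 0.080 without UUO 2 and 0.55 without UUO 1.

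Genes detected per cell followed the same order. Sample medians for Prolif PT were 529 to 1576 genes in Control, with 998 ± 421 (SD, n = 5), and 1374 and 1869 in UUO, with 1622 ± 350 (SD, n = 2). The ratio of UUO to Control was 1.73 (95% interval 1.11 to 2.68, limma adjusted p 0.0648), in a fit that called 5.26% of the 19 classes and had 6 at an unadjusted p under 0.05. Without Control 5 it was 1.97 and passed (limma adjusted p 0.0229), and without Control 2 it was 1.87 and passed (0.0267). Without Control 6 it was 1.50 (limma adjusted p 0.208). In the fit without Control 2 the standard error is one shared by all classes. Two-sided exact permutation gave p = 0.190 with all samples, 0.133 without Control 5 and 0.267 without Control 2. None of these passed adjustment. In Control 6 the Prolif PT median, 529, was the lowest of all 28 classes of that library. Prolif PT ranked 4th of 28 in both UUO 2 and Control 5, 6th in Control 2 and 7th in UUO 1. It ranked 9th in Control 1 and 17th in Control 3+4.

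**Figure D3:**
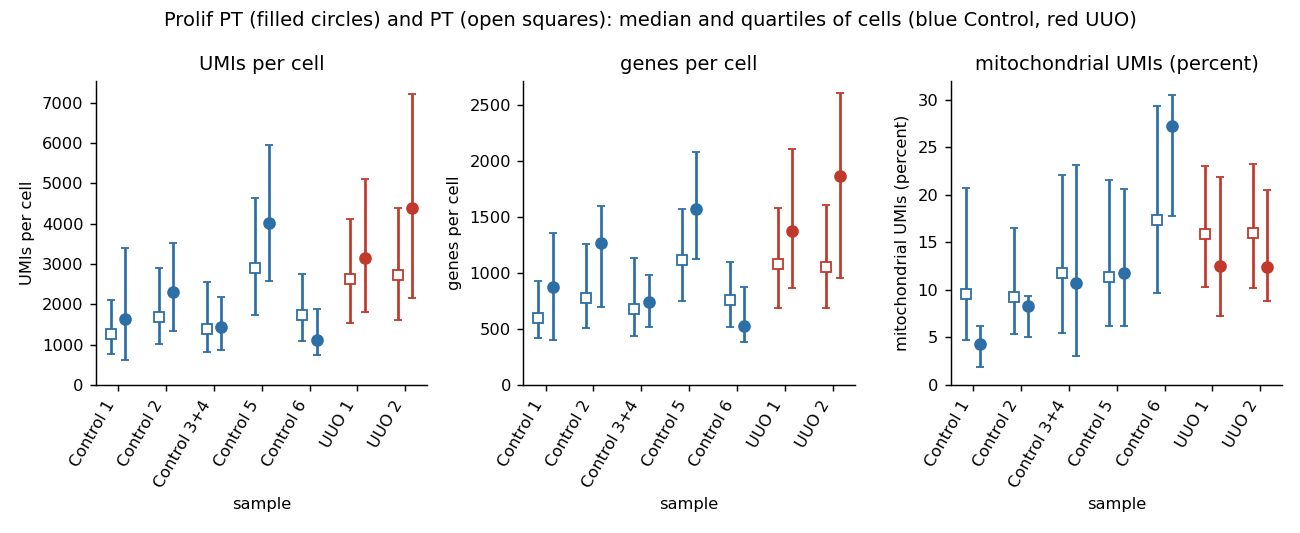
Median (symbol) and quartiles (bars) over cells of UMIs, genes and mitochondrial percentage, for Prolif PT (filled circles) and PT (open squares) in each sample. Prolif PT lies above PT in UMIs in every sample other than Control 6, where it is at 1106 against 1729, and Control 6 has the highest mitochondrial median, 27.2%.

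At equal total UMIs Prolif PT cells still showed slightly more genes than PT cells in most samples. A curve of log2 genes on log2 UMIs was fitted to the PT cells of each sample, and Prolif PT cells were read against it. These UMIs include mitochondrial ones, whose percentage differed between Prolif PT and PT. Whether that difference moved the result was not tested. The ratio of observed to fitted genes had a median of 1.08 in Control 1, 1.12 in Control 2, 1.12 in Control 3+4, 1.13 in Control 5 and 0.979 in Control 6, and of 1.10 in UUO 1 and 1.09 in UUO 2. With all cells the value was above 1 in 6 of 7 samples, again with Control 6 as the exception. Among cells under 20% mitochondrial, its log2 averaged 0.115 ± 0.041 (SD, n = 5) in Control, against 0.118 ± 0.087 with all cells. At that mean and spread no Control sample, Control 6 included, can lie below its PT curve. With all cells no difference between the groups was detectable in the value (0.012 on the log2 scale, two-sided exact permutation p = 0.905, Benjamini-Hochberg value 0.987). Without Control 6 it was -0.025, of the other sign.

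All cells in the table have under 3000 genes, and Prolif PT cells often came near that limit. Cells with at least 2500 genes were 61 of 529 Prolif PT cells in Control 5 (11.5%), 14 of 113 in UUO 1 (12.4%) and 11 of 42 in UUO 2 (26.2%), but 1 of 136 in the other Control libraries together. Over the whole class they were 87 of 820 cells (10.6%), against 1.31% of PT, 3.96% of Profibrotic Tubules and 17.5% of Prolif Ly, which came nearer the limit still. If cells above the limit were left out, their number in each class is not known from these tables. At the low end, cells under 1000 UMIs were 22 of 529 in Control 5, 7 of 113 in UUO 1 and 2 of 42 in UUO 2, but 50 of 136 in the other Control libraries.

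Mitochondrial transcripts were compared because proximal tubule cells are rich in mitochondria and because a high share can also mark damaged cells. The median mitochondrial percentage of Prolif PT cells was 4.35 in Control 1, 8.25 in Control 2, 10.7 in Control 3+4, 11.8 in Control 5 and 27.2 in Control 6, and 12.6 in UUO 1 and 12.4 in UUO 2. The UUO values were close together. They lay above 4 of the 5 Control samples and below Control 6. The groups differed by 0.024 percentage points (95% interval -13.8 to 13.8, limma adjusted p 0.997), and the fit called 0% of 19 classes, with 0 at an unadjusted p under 0.05. The small difference rested on Control 6. Without it the Control mean was 8.78% ± 3.30 (SD, n = 4) against 12.5% in UUO, a difference of 3.71 points (-2.06 to 9.48, limma adjusted p 0.971), and both UUO samples were above all 4 remaining Control samples.

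Against PT cells of the same sample, Prolif PT cells were lower by a median of 3.30 percentage points in UUO 1 and 3.55 in UUO 2. In Control the Prolif PT minus PT difference was -5.26 in Control 1, -1.04 in Control 2, -1.06 in Control 3+4, 0.41 in Control 5 and 9.92 in Control 6. Prolif PT was thus below PT in 5 of 7 samples and far above it in Control 6. The UUO minus Control difference of these values was -4.02 percentage points (two-sided exact permutation p = 0.429, Benjamini-Hochberg value 0.898), and -1.69 without Control 6.

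Prolif PT cells of Control 6 had the lowest UMIs, the fewest genes and the highest mitochondrial percentage of the 7 samples. Taken as a separate library, Control 4 had a lower Prolif PT median, 970 UMIs. Of the 68 Prolif PT cells of Control 6, 48 (70.6%) were at or above 20% mitochondrial UMIs. Among the same 68 cells, 33 (48.5%) had under 1000 UMIs and 28 (41.2%) had both. Cells with both were 2 of 529 in Control 5, 3 of 13 (23.1%) in Control 4 and 0 in the other libraries. Low UMIs alone were about as frequent in Controls 4 and 1, with 7 of 13 cells (53.8%) and 7 of 17 (41.2%) under 1000. They were rarer in Control 2, with 3 of 33 (9.09%), and Control 3 had 0 of 5. PT cells of Control 6 had a median of 1729 UMIs and 17.3% mitochondrial, against 1106 and 27.2% in its Prolif PT cells. With cells under 20% mitochondrial alone, 20 Prolif PT cells were left in Control 6. Under that limit the UUO to Control ratio of Prolif PT UMIs was 1.81 (limma adjusted p 0.0323) and that of genes 1.70 (0.00714). Both passed, in fits whose standard error is shared by all classes. Two-sided exact permutation gave p = 0.143 for each (Benjamini-Hochberg value 0.643). The UUO minus Control difference of the log2 Prolif PT to PT ratio of UMIs was 0.027 under the same limit. This log2 ratio then averaged 0.363 ± 0.136 (SD, n = 5) in Control, against 0.144 ± 0.473 with all cells. At that mean and spread no Control sample, Control 6 included, can have a Prolif PT median below its PT median.

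**Figure D4:**
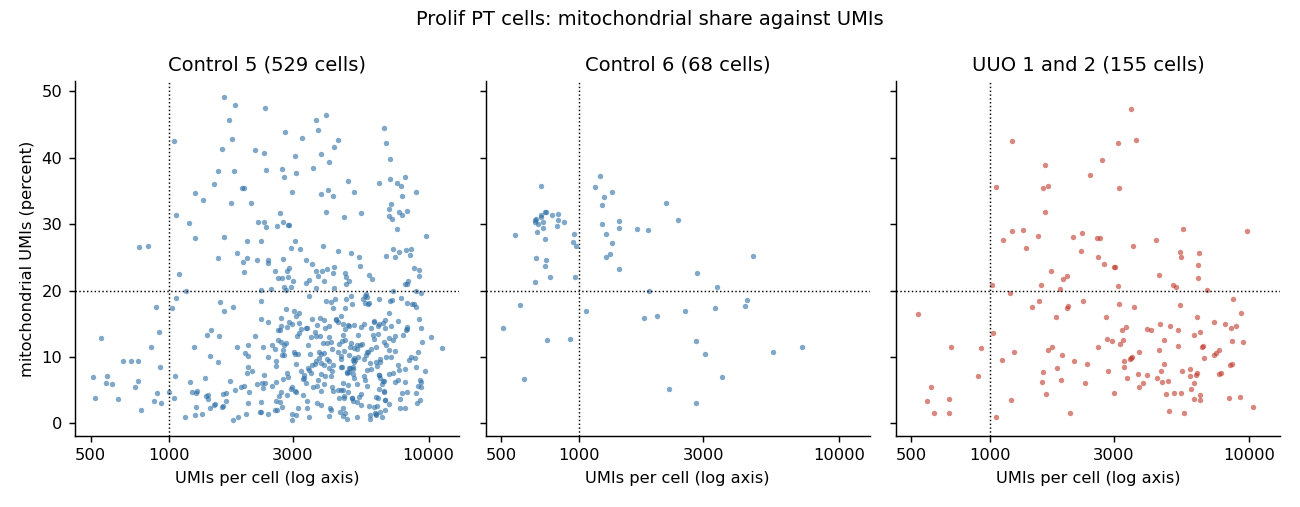
Each point is a Prolif PT cell, by UMIs (log axis) and mitochondrial percentage, in Control 5, Control 6 and the UUO libraries, with dotted lines at 1000 UMIs and 20%. In Control 6, 28 of 68 cells fall at the upper left, past both lines, against 2 of 529 in Control 5.

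The authors' two-dimensional embedding (UMAP), in which cells with like transcriptomes lie together and distances have no unit, covers the 25200 cells outside class PT, so Prolif PT cells could not be placed against PT. The class formed 1 compact group. Of the 15 nearest neighbours of each Prolif PT cell, 96.9% were Prolif PT over the whole class, and 663 of 820 cells had neighbours of their own class alone. Just 14 cells had fewer than 8, and 10 of these were from Control 5. The classes with the nearest centres were Prolif Ly at a distance of 1.92 and Profibrotic Tubules at 2.39, ahead of B lymphocytes at 6.24. Profibrotic Tubules also gave the most neighbours of another class, 0.886%, and Prolif Ly gave 0.724%. Prolif PT thus lay between the other proliferating class and the class Profibrotic Tubules, and DCT lay at 6.99.

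Library medians lay close together within that group. They lay between 3.34 and 3.77 on the first axis and between -3.87 and -3.12 on the second. The group means of the sample medians were 0.058 apart (exact permutation p = 0.905, Benjamini-Hochberg value 0.987). The UUO samples lay at opposite ends of the first axis, UUO 1 lowest and UUO 2 highest, so their mean fell near the middle. The distance was 0.32 without UUO 1 and 0.28 without UUO 2. Control 5 cells had 68.3% of their neighbours from their own library, against a 64.5% share of the class, and UUO 1 cells 15.5% against 13.8%. Control 6 cells had 19.1% against 8.29%, the widest gap of the 8 libraries.

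Over the class as a whole, mitochondrial percentage was lower farther along the first axis, but not in every library. With the 820 cells cut into 3 parts of near equal size along it, median percentages were 16.0, 12.4 and 9.30. In Control 5 alone they were 17.3, 11.2 and 8.73, and in UUO 1 they were 15.5, 15.5 and 7.24. UUO 2, with 12.3, 16.1 and 10.6, was highest in the middle, and Control 6, with 17.6, 30.2 and 28.1, was lowest at the start. Control 2 had 8.37, 8.59 and 3.71. Control 1, with 3.74, 9.33 and 4.201, and Control 4, with 17.5, 2.97 and 26.5, did not follow the order either, on 1 to 8 cells a part. These are descriptions over cells that share a library, and the embedding was made from the same transcripts.

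**Figure D5:**
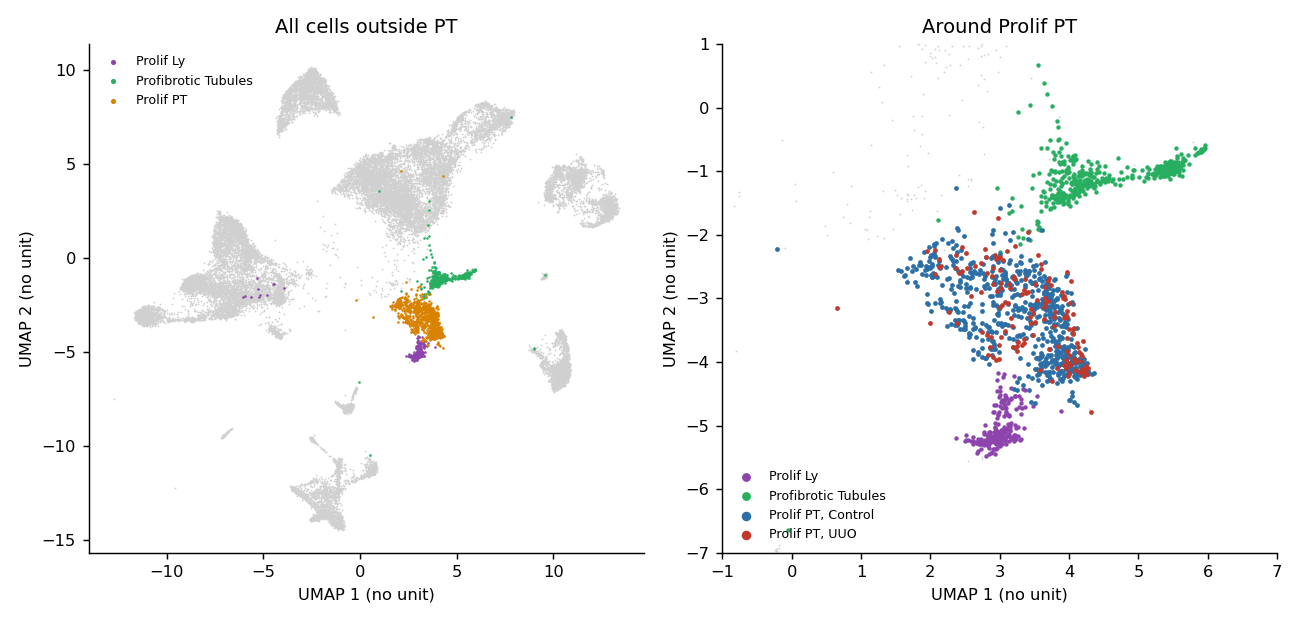
Position of cells in the authors' embedding (axes without unit), for all cells outside PT on the left and enlarged around Prolif PT on the right, where a few distant cells of the class fall outside the frame. Prolif PT cells of Control (blue) and UUO (red) overlap, between Profibrotic Tubules (green) above and Prolif Ly (purple) below.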

How the data were processed

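Single-cell 3′ libraries (10x Genomics Chromium, per the labels' protocols) of 8 mouse kidney samples were used. Cell Ranger 6.0.1, Seurat 4.0.1 and mm10 are named in the submitters' processing notes, and the sources used here do not state filters, clustering or embedding settings. The deposited table gives UMIs and genes as raw counts per cell, and the mitochondrial percent of UMIs as computed by the authors. The deposited embedding coordinates are a score without unit. Doublets were treated as the authors left them.

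Prolif PT cells were taken by the authors' class name. Members, classes and tests were chosen with earlier results of these data known. Classes named were Prolif PT, PT, Prolif Ly, Profibrotic Tubules, neighbours in a ranking and the nearest in the embedding. Shares were taken as log2 odds with an offset of 0.5 cells, and UMIs and genes as log2 sample medians. They were fitted with limma 3.58.1 (R 4.3.3) over all classes, or over 19 classes (those reaching 20 cells in 2 or more samples per group), with Benjamini-Hochberg adjustment and a threshold of 0.05. Single values were compared by exact permutation over samples. Thinning to equal UMIs needs gene-level counts, not analysed here, so a quadratic curve was used. The precision of each share rests on 2263 to 18393 cells per library. Functions were tested on simulated data. Alternatives, among them edgeR 4.0.16, are in the closing section.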

Additional observations from a re-analysis of the deposited data

Results flagged for a closer look

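Control 5 was flagged in 4 of the 14 sets of Control values examined, because its value lay farther from the other Control samples than a test for a single distant sample allows. Chance flags about 1 in 20 such sets, and 3 of the 4 use the same Prolif PT cells. In log2 odds its Prolif PT share was -4.88 of all cells, -4.77 of tubular cells and -4.27 of proximal tubule cells. Its Prolif Ly share of lymphoid cells, 21.0%, was examined in percent instead, and whether it stands apart in log2 odds is not given here. Of the 114 Prolif Ly cells behind that share, 77 were at or above 20% mitochondrial. No other Control value was flagged, the mitochondrial percentage of Control 6 included.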

How the results depend on the processing

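Across 21 alternative settings, 168 of 193 recomputed values kept their direction and side of the threshold, 7 passed it and 18 changed sign. By limma, UMIs per cell (log2 difference) passed under 20% mitochondrial (0.86) and with the replicate block (0.93). Genes per cell passed by limma under 20% mitochondrial (0.77) and with means over cells (0.65). None of these passed by exact permutation. The tubular share changed sign with centred log-ratios (1.50), TMM scaling in edgeR (1.89) and the replicate block (0.076). Genes at matched UMIs changed sign with at least 1000 UMIs (-0.018) and the replicate block (-0.0090), the gene ratio to PT with the replicate block (-0.040), and the mitochondrial percentage in the large libraries (-7.002) and, an alternative added after seeing the data, with at least 20 cells per sample (-3.26). Leaving out Controls 3 and 4 together was added in the same way and gave -0.41 for it. The cause was not tested.

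Leaving out samples in turn gave -1.01 to 0.031 for the share of all cells, -0.66 to 0.25 for that of tubular cells, -1.05 to -0.20 for that of proximal tubule cells, 0.73 to 1.25 for UMIs, 0.57 to 1.01 for genes, -0.025 to 0.028 for genes at matched UMIs, 0.12 to 0.54 and 0.080 to 0.55 for the log2 ratios of UMIs and genes to PT, 0.038 to 0.32 for the embedding distance and -2.005 to 3.71 percentage points for mitochondrial percentage. With 1 UUO sample left, limma takes its spread from the other group. Numbers 1 and 2 occur in both groups, and the titles give no pairing. Class shares of same-numbered samples deviated with correlations of -0.25 and -0.0037. With 2 UUO samples the deviations of 1 mirror those of the other. These correlations therefore cannot show or exclude a link between same-numbered samples, and the block stands as an alternative alone. Exact tests cannot go below p of 0.333 in the libraries over 10000 cells or 0.5 with the block. Small numbers limit Controls 1, 3 and 4, with 5 to 17 Prolif PT cells.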
